A study of Mus musculus with 15 samples.

Results

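The livers of 2-week-old mice that lack Stab1 were compared with those of wildtype mice of the same age, gene by gene, over 4 Stab1-/- and 4 wildtype libraries chosen by their labels out of 15 libraries in all. The remaining 7 libraries are from E17.5, an embryonic stage shortly before birth, and enter only where named. Both genotypes carry the mixed background C57BL/6N;129SvJ, the knockout lacks the gene in all cells, and whether the wildtype mice were littermates is not given in the sources used here. The study gives its numbers in mice, and they equal the numbers of libraries, but litters are not stated, so p-values measure the spread between these livers.

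Stab1 encodes Clever-1, also called stabilin-1, a large scavenger receptor of sinusoidal endothelial cells, lymphatic endothelium and some macrophages, which takes up modified lipoproteins, matrix fragments and the matrix protein SPARC and delivers them to lysosomes. The mouse liver is still maturing at this age. Hepatocytes leave the cell cycle, silence fetal genes such as Afp, H19 and Igf2, and raise the cytochrome P450 enzymes of the adult, while stellate cells and portal fibroblasts build the connective tissue around the growing lobules. Bulk RNA from a whole liver cannot tell fewer cells of a type apart from less RNA per cell.

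Between 9659 and 10668 kiloreads were counted on genes per library. The values of single libraries are given below in the order of replicates 1 to 4, first Stab1-/- and then wildtype, as RPKM (reads scaled by gene length and by the library's total of reads on genes), and means are given ± SD with n = 4. In the check of the target, Stab1 stood at 0.862, 0.911, 1.54 and 1.05 RPKM in Stab1-/- livers and at 9.15, 7.30, 9.68 and 11 RPKM in wildtype livers. The labels and the Stab1 levels thus matched in all 8 libraries. The first principal component held 42.2% of the variance, with scores of -32.1 to -14.3 in Stab1-/- and 7.16 to 37.9 in wildtype libraries, and the outermost scores belonged to Stab1-/- replicate 1 and wildtype replicate 4. Albumin and the other defining hepatocyte genes were abundant throughout, with a summed level of 112500 to 157600 RPKM over 22 hepatocyte genes. Actb, a control gene, was 246 ± 45.1 against 240 ± 40.5 RPKM (exact permutation p = 0.8286, two-sided), and Tnf was near the limit of counting in each library, at 0 to 0.175 RPKM and 0.0623 to 0.295 RPKM.

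Of 12716 genes tested, 340 were called at an adjusted p under 0.05 (edgeR quasi-likelihood test, Benjamini-Hochberg), which is 2.67% of them. In Stab1-/- livers 119 genes (0.936%) were higher and 221 genes (1.74%) were lower, and these shares are the background for the gene lists that follow. The changes were mostly moderate. Over a 2-fold change was reached by 45 of the higher and 58 of the lower genes, and the median log2 fold change was 0.81 among higher, -0.78 among lower and -0.013 among all tested genes. Libraries of the genotypes did not overlap in 1894 genes (14.9% of those tested), a group that held all 119 higher and 207 of the 221 lower genes. When libraries were scaled by their totals alone, 137 genes were higher and 118 lower, so that the share of higher genes rose from 35.0% to 53.7%. The lower genes were richer in G and C (median 52.2% of the transcript) than the higher genes (42.7%), and over all tested genes the log2 fold change had a Spearman correlation of -0.344 with GC content, a description across genes. With GC-content offsets 121 genes were higher and 196 lower, and 261 of the 340 calls were shared, 86 of them among the 119 higher genes. Leaving out 1 library brought the counts down to 41 higher and 75 lower without Stab1-/- replicate 1, and to 52 and 100 without wildtype replicate 3. Without wildtype replicate 2 they were 294 and 354.

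**Figure D1:**
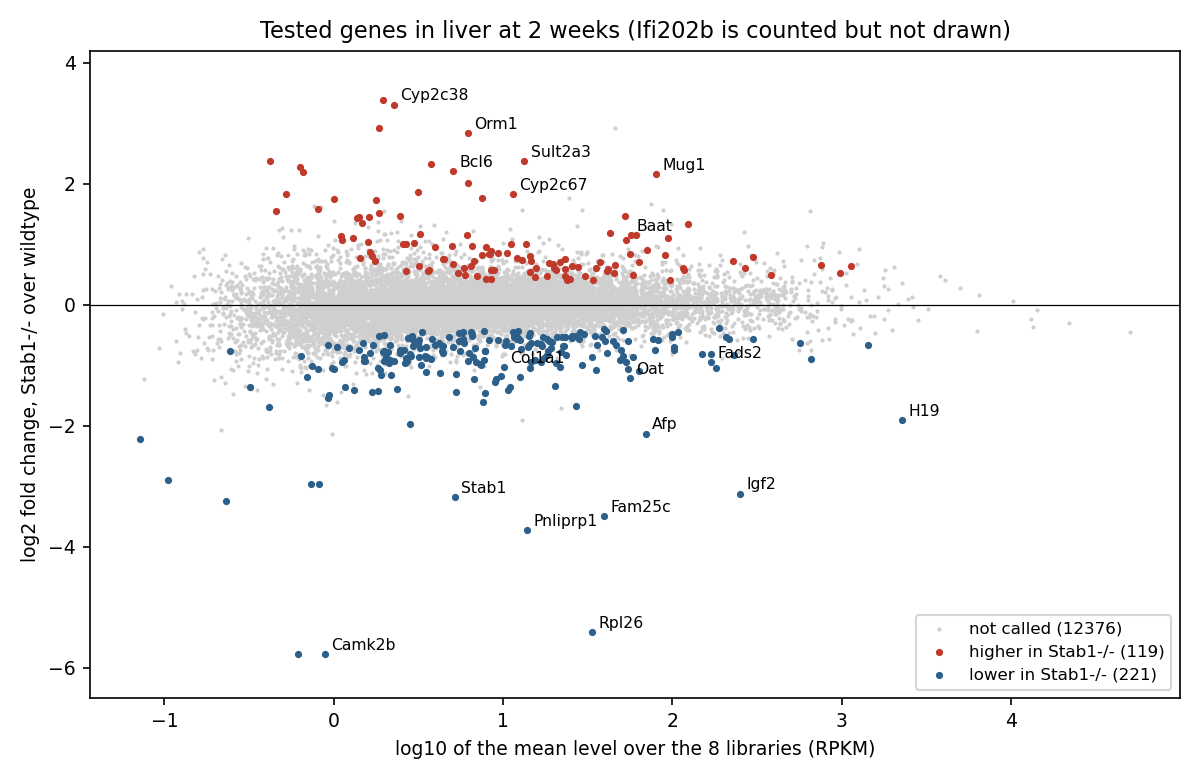
Each point is a tested gene, placed by the log10 of its mean level over the 8 libraries (horizontal axis, RPKM) and its log2 fold change of Stab1-/- over wildtype (vertical axis), with the 119 higher genes in red, the 221 lower genes in blue and the others in grey; Ifi202b is counted but not drawn. H19 has the highest level among the lower genes, and Igf2, H19, Cyp2c38, Orm1, Sult2a3 and Mug1 are among the labelled points.

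Some genes of the fetal liver, with Igf2, H19 and Afp first among them, were lower in Stab1-/- mice. Of 18 tested fetal liver genes 4 were lower and none was higher, and 15 of 18 had a negative log2 fold change (median -0.40). Igf2, the fetal growth factor, was at 46.2, 61.6, 69.2 and 42.7 RPKM in Stab1-/- and at 501, 514, 463 and 323 RPKM in wildtype livers. Every Stab1-/- library was far below every wildtype library, and Igf2 had a log2 fold change of -3.12 (SE 0.18, adjusted p = 5.15e-06 by edgeR). H19, the noncoding RNA next to Igf2 that is expressed from the other parental allele, was 1005 ± 51.3 RPKM against 3565 ± 955 RPKM, a log2 fold change of -1.91 (SE 0.17, adjusted p = 0.000153 by edgeR). Its levels were 2418 to 4650 RPKM in wildtype and 935 to 1059 RPKM in Stab1-/- livers, and the Stab1-/- libraries lay close together. Afp, the fetal counterpart of albumin, stood at 29.0, 28.5, 31.7 and 19.5 RPKM in Stab1-/- and at 134, 141, 137 and 35.8 RPKM in wildtype livers (log2 fold change -2.13, SE 0.33, adjusted p = 0.00746 by edgeR). Wildtype replicate 4 was thus only slightly above the Stab1-/- libraries for Afp. The summed level of the fetal list was 1480 to 1580 RPKM in Stab1-/- and 3107 to 5729 RPKM in wildtype libraries. This difference lay in H19, Igf2 and Afp, since the 19 other members summed to 428 ± 67.8 against 413 ± 55.6 RPKM, with overlapping libraries. Without wildtype replicate 2, 7 fetal genes were lower.

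Other imprinted growth genes, which are expressed from 1 parental allele and decline after birth, were lower as well. Of 22 tested members 6 were lower, none was higher and 21 had a negative log2 fold change (median -0.47). Besides Igf2 and H19 these were the noncoding RNAs Meg3 (1.22 ± 0.484 against 2.59 ± 0.474 RPKM) and Rian (1.94 ± 0.501 against 3.46 ± 0.534 RPKM) of the Dlk1 cluster, the growth inhibitor Cdkn1c (12 ± 1.24 against 21.6 ± 2.43 RPKM, adjusted p = 0.000808 by edgeR) and the insulin receptor adaptor Grb10 (12.7 ± 1.91 against 16.3 ± 1.45 RPKM). Cdkn1c and Grb10 were named after their values were seen. Dlk1 itself had 0.176 ± 0.0818 against 0.425 ± 0.0834 RPKM and narrowly missed the threshold (adjusted p = 0.05003 by edgeR). Igf2, H19 and Afp were called in all 19 settings tried, and Meg3 and Rian in 14 and 12 of them. Without Stab1-/- replicate 1, or without wildtype replicate 1, 3 imprinted genes were lower, and without Stab1-/- replicate 2 or wildtype replicate 3 there were 4.

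**Figure D2:**
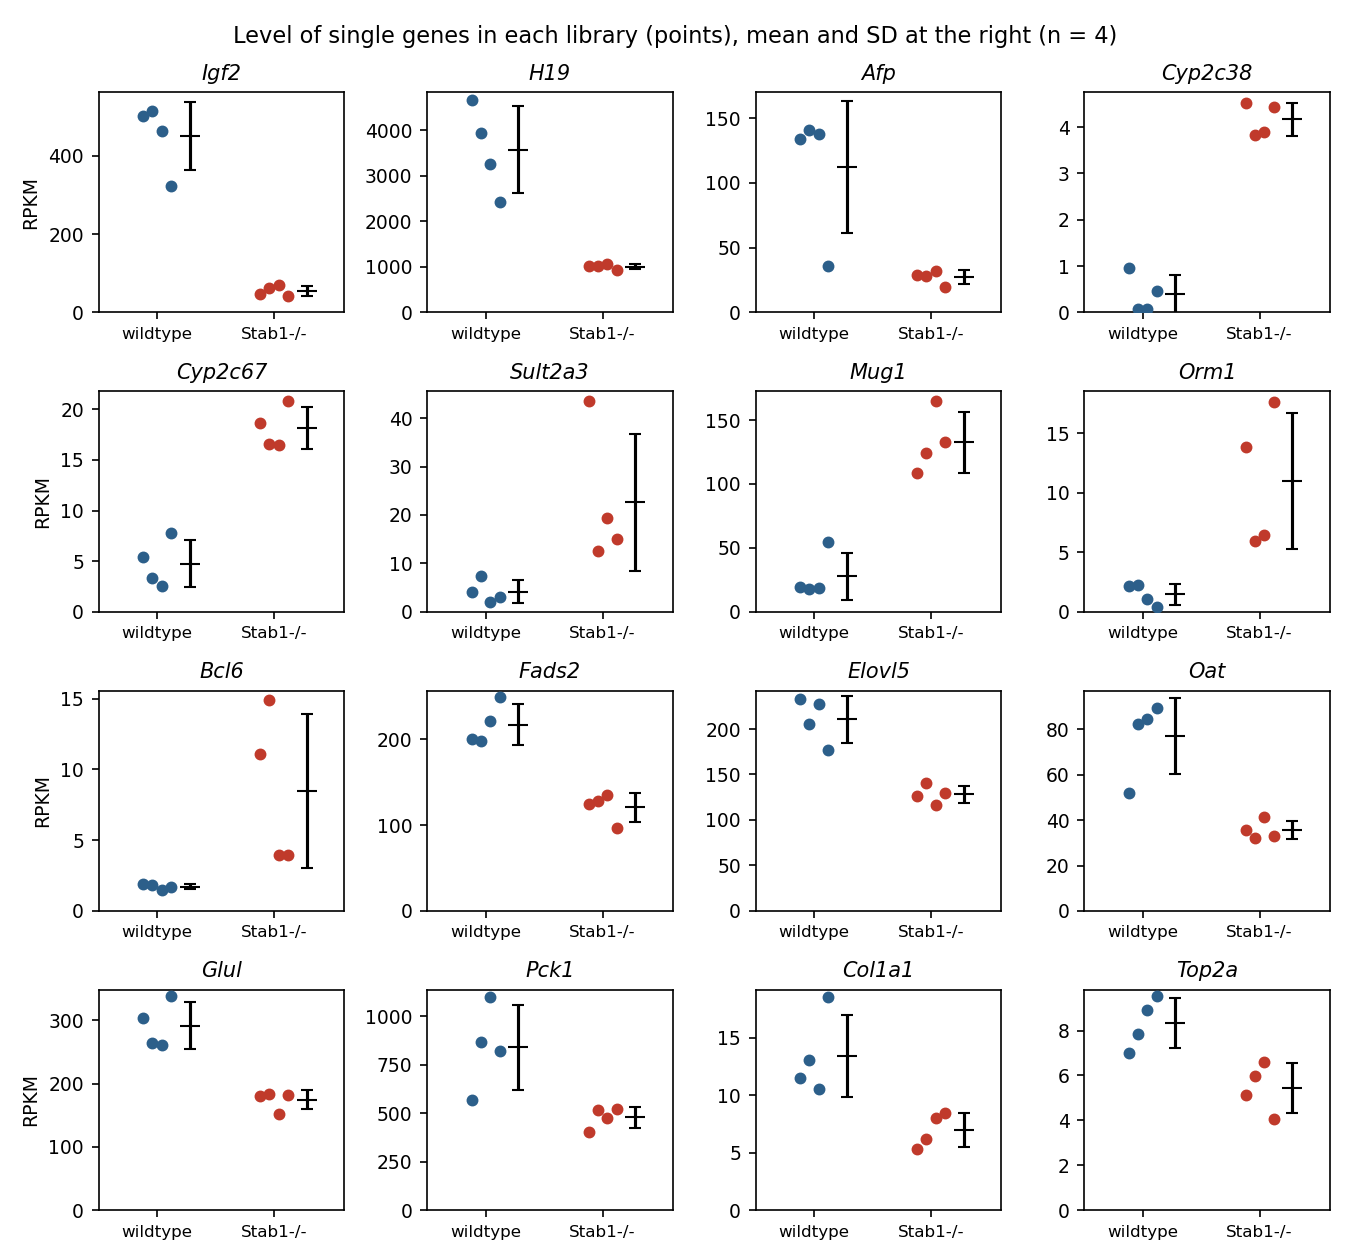
Each panel shows the RPKM of 1 gene (vertical axis, from 0) in the 4 wildtype libraries (blue) and the 4 Stab1-/- libraries (red), with the mean and SD at the right of each group. The genotypes do not overlap in any of the 16 panels, the wildtype point nearest to the Stab1-/- points for Afp is replicate 4 at 35.8 RPKM, and Bcl6 is split among Stab1-/- livers.

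The extracellular matrix held more lower genes than any other list. Of 78 tested matrix genes 29 were lower (37.2%, against 1.74% of all tested genes) and none was higher, and 67 had a negative log2 fold change (median -0.54). Among 20 tested collagen chains 9 were lower. Col1a1 and Col1a2, the chains of type I collagen, the main fibre of scar and tendon, were 6.96 ± 1.48 against 13.4 ± 3.58 RPKM and 14.4 ± 1.84 against 26.5 ± 3.93 RPKM. Col3a1, the chain of reticular fibres, stood at 54.5, 57.6, 61.6 and 72.3 RPKM in Stab1-/- and at 94.0, 96.9, 80.8 and 119 RPKM in wildtype livers. Both genotypes had their highest value for Col3a1 in replicate 4, without overlap (log2 fold change -0.75, SE 0.15, adjusted p = 0.0229 by edgeR).

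Some genes of basement membranes, which separate epithelium and vessels from connective tissue, were among the lower ones. Col4a1 was 17.7 ± 2.15 against 29.6 ± 5.28 RPKM, a log2 fold change of -0.83 (SE 0.15, adjusted p = 0.0157 by edgeR). Of the other basement membrane genes, named after their values were seen, Col4a2 had a log2 fold change of -0.92, the linker proteins Nid1 and Nid2 of -0.68 and -0.88, and the laminin chains Lama1, Lama2, Lamb1 and Lamb3 of -1.06, -0.70, -0.64 and -0.85. Some genes of elastic fibres changed in the same direction. Eln, which encodes elastin, was 23.7 ± 4.78 against 47.2 ± 6.60 RPKM (log2 fold change -1.08, SE 0.16, adjusted p = 0.00677 by edgeR), and the microfibril proteins Mfap4, Mfap2 and Fbn1 had log2 fold changes of -1.45, -1.14 and -0.76. Some enzymes and chaperones that process collagen were also lower, namely Serpinh1 (-0.60), Pcolce (-0.71) and Loxl2 (-0.68). The matrix-degrading proteases Mmp2 (-0.59) and Mmp14 (-0.45) were lower too. The genes of this paragraph other than Col4a1 lie outside the naming rule and are shown to describe the matrix list. Those named so far were all taken from the 29 lower genes, and 49 of the 78 tested were not called. They therefore do not show what share of each kind of matrix gene was lower. Sparc, the matrix protein that Clever-1 binds, had 199 ± 14.8 against 223 ± 4.78 RPKM and was not called (adjusted p = 0.179 by edgeR).

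**Figure D3:**
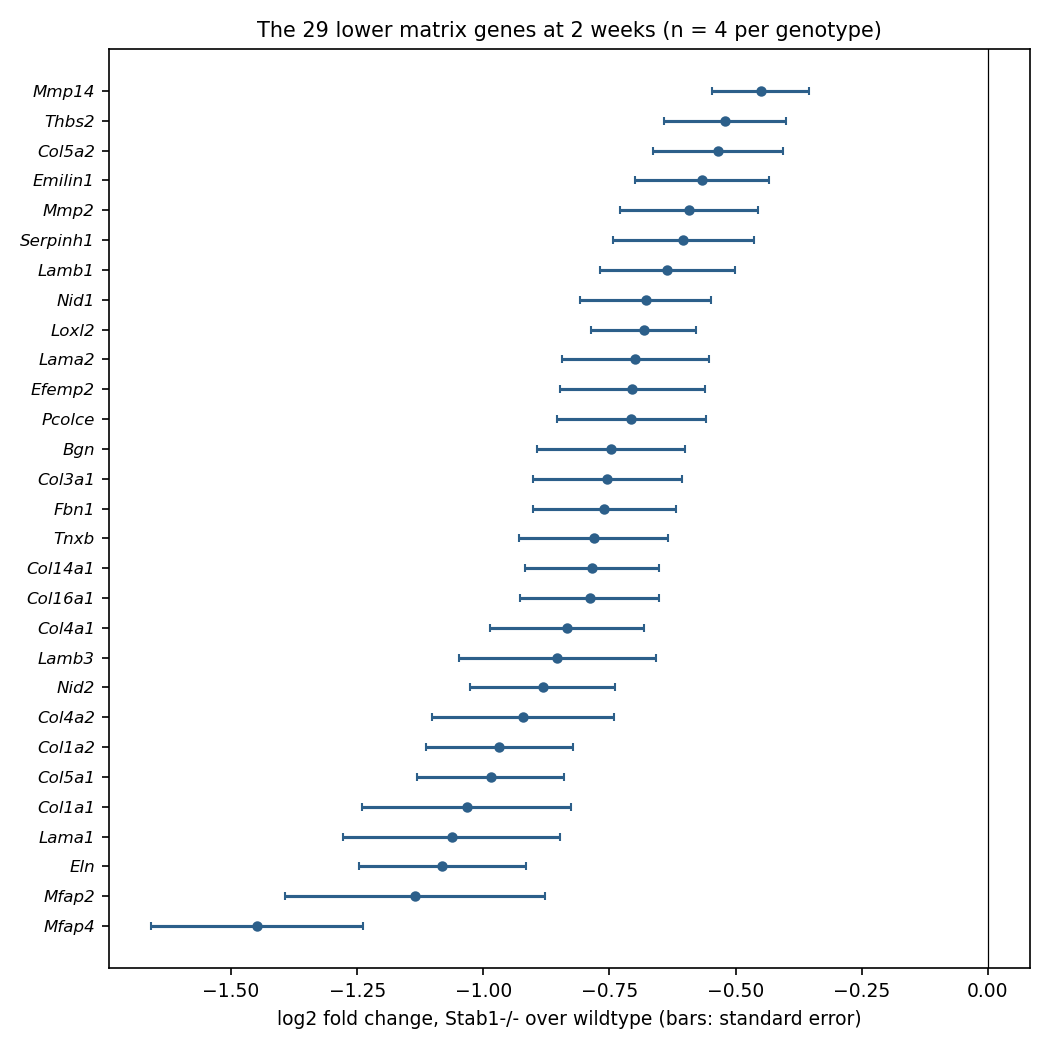
Log2 fold change of Stab1-/- over wildtype (horizontal axis) for the 29 lower matrix genes, with bars of 1 standard error, from edgeR. The values run from -1.45 for Mfap4 to -0.45 for Mmp14.

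The matrix genes are made largely by stellate cells and fibroblasts, and 8 of 37 tested markers of these cells were lower and none higher (median log2 fold change -0.35). Ngfr, the neurotrophin receptor of stellate cells, was at 2.56, 2.61, 2.10 and 1.93 RPKM in Stab1-/- and at 4.37, 4.29, 3.42 and 5.06 RPKM in wildtype livers (log2 fold change -0.99, SE 0.15, adjusted p = 0.00690 by edgeR). The stellate cell regulators Lhx2 and Hand2 were 2.56 ± 0.169 against 3.94 ± 0.618 RPKM and 4.64 ± 0.533 against 6.62 ± 0.380 RPKM. Reln, secreted by stellate cells, was 13 ± 2.05 against 18.8 ± 2.38 RPKM. Calls of Lhx2, Hand2 and Reln were each kept in 2 of the 8 fits that leave out 1 library, and that of Ngfr in all 8. Not every marker moved, and 29 of the 37 were not called. Lrat, the enzyme with which quiescent stellate cells store vitamin A, was 9.5 ± 1.06 against 10.2 ± 1.68 RPKM and Dcn, a proteoglycan of the same cells, was 138 ± 8.27 against 126 ± 13.8 RPKM, neither of them called. Col1a1, Col1a2 and Col3a1 belong to both lists. The summed level of the matrix list was 1920 to 2492 RPKM in Stab1-/- and 2694 to 3260 RPKM in wildtype libraries, and that of the stellate and fibroblast list 672 to 714 RPKM and 714.5 to 823 RPKM.

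The count of lower matrix genes was 9 without Stab1-/- replicate 1, 11 without replicate 2 and 17 without replicate 3, and 15 without wildtype replicate 3 and 18 without wildtype replicate 4, while none was higher in any of these fits. Counts for stellate cells and fibroblasts were 3 without Stab1-/- replicate 1 or 2, and 5 without wildtype replicate 1 or 4. The median log2 fold change of the matrix list lay between -0.62 and -0.33 over the 19 settings. Matrix transcripts are GC-rich (median 53.8%, against 49.5% of tested genes), and 26 were lower after GC-content offsets. Col1a2 and Col4a1 were called in all 19 settings.

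**Figure D4:**
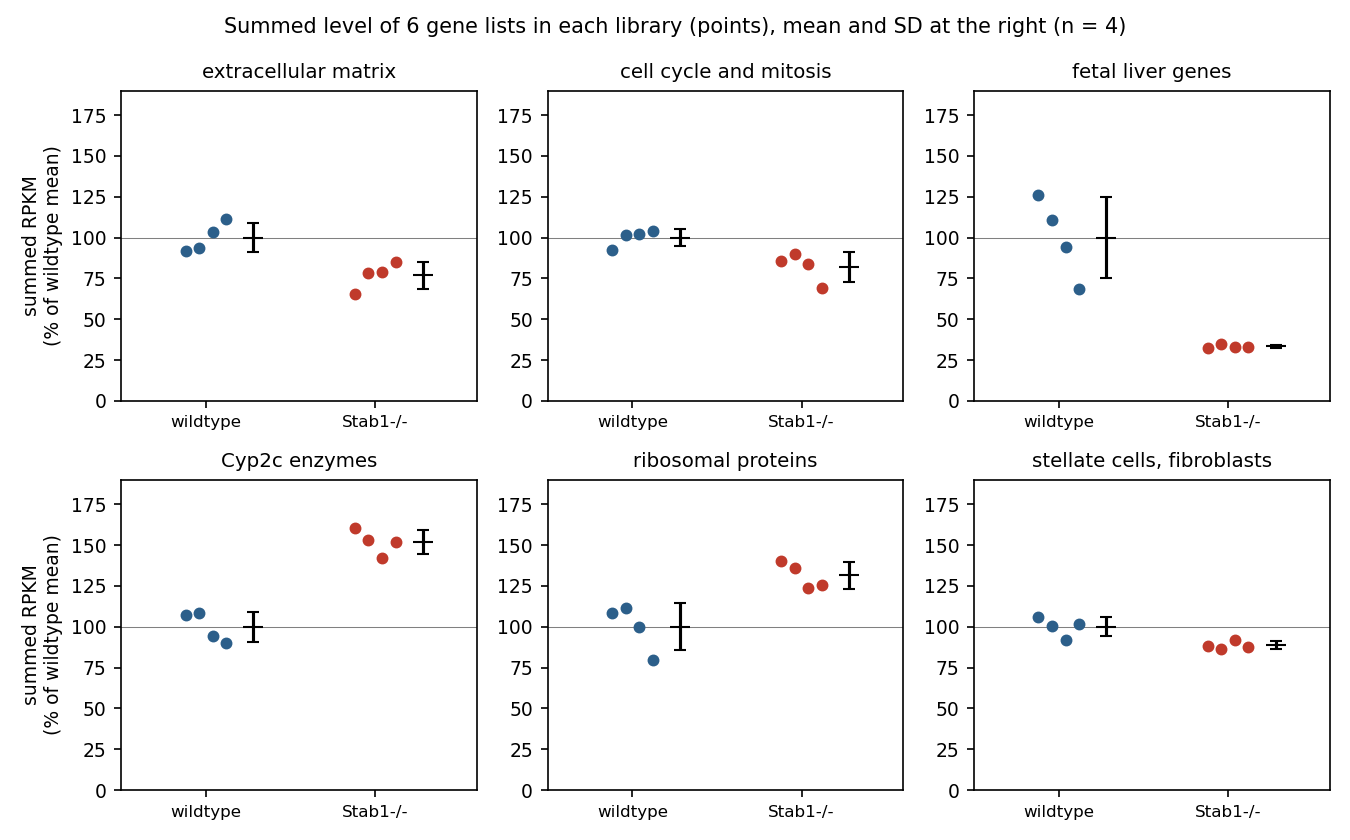
Summed RPKM of 6 gene lists in each library, as a percent of the wildtype mean (vertical axis, from 0), with wildtype in blue and Stab1-/- in red, and the mean and SD at the right of each group. The fetal sum, most of it H19 and Igf2, was 33.4% and the matrix sum 76.85% of the wildtype mean, while the Cyp2c list stood at 152% and the ribosomal proteins at 131%.

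Some genes of the cell cycle were lower. Of 82 tested cell cycle and mitosis genes 11 were lower and none higher, and 77 had a negative log2 fold change (median -0.48). Top2a, the topoisomerase of dividing cells, was at 5.13, 5.96, 6.61 and 4.05 RPKM in Stab1-/- and at 7.01, 7.83, 8.93 and 9.54 RPKM in wildtype livers (log2 fold change -0.71, SE 0.15, adjusted p = 0.0330 by edgeR). The genotypes did not overlap, but Stab1-/- replicate 3 and wildtype replicate 1 were close. Ccna2, the cyclin of S phase and early mitosis, was 4.96 ± 0.724 against 8.41 ± 1.71 RPKM, and Cdc25b, a phosphatase that starts mitosis, was 1.25 ± 0.0755 against 2.02 ± 0.239 RPKM. Cdc20, which activates the anaphase-promoting complex, was 5.2 ± 1.92 against 9.73 ± 2.22 RPKM, with overlapping libraries. The other 7 lower genes, named after their values were seen, were the mitotic kinesins Kif11, Kif22 and Kif23, the spindle proteins Prc1 and Cdca8, the tubulin-binding protein Stmn1 and the condensin subunit Ncapd2. Their log2 fold changes ran from -0.54 to -0.93.

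The calls in this list depended on single libraries. Only 1 cell cycle gene was lower without Stab1-/- replicate 1 or replicate 4, 2 without wildtype replicate 3 or replicate 4, 5 without Stab1-/- replicate 2, and 7 without Stab1-/- replicate 3. The median stayed between -0.54 and -0.29 over the 19 settings. Summed over the list, the level was 471 to 611 RPKM in Stab1-/- and 628 to 709 RPKM in wildtype libraries.

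Many mitotic genes share a promoter layout, with CCAAT boxes bound by the factor NF-Y and the motif TTTGAA, called CHR, near the start. The sequence of Top2a is shown because it holds both. RefSeq (GRCm38.p6) gave upstream windows of 250 bases for 67 of the 82 tested cell cycle genes. CCAAT, on either strand, was present in 47 of the 67 (70.1%) and in 37.5% of all 27025 genes with such a window, and in 9 of the 9 lower genes that had one. TTTGAA was present in 34.3% of the 67 and in 18.3% of all genes, and in 6 of the 9 lower genes that had a window. The Top2a window on chromosome 11, chr11:99024190-99024439 on the minus strand, is printed 5′ to 3′ and ends at the base before the start, with both motifs in capitals on either strand.
Top2a: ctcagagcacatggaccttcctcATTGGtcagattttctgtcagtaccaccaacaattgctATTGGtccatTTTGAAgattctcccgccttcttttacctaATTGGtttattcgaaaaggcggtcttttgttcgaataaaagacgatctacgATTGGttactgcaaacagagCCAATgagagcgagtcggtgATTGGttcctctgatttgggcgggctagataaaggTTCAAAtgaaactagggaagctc
Its window holds 6 CCAAT boxes and 2 copies of TTTGAA, the latter 179 and 23 bases before the start. A match describes the sequence and is not a measured binding site.

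Among the higher genes, the Cyp2c cytochromes P450 formed the clearest group. These enzymes of the hepatocyte endoplasmic reticulum oxidize drugs, fatty acids and steroids, and many of them rise around weaning or differ between the sexes. Of 13 tested Cyp2c genes 6 were higher and 1 was lower, with a median log2 fold change of 0.61. Their transcripts had a median GC content of 42.1%, and with GC-content offsets 4 were higher and 1 lower, with a median of 0.40. Cyp2c38 stood at 4.52, 3.82, 3.90 and 4.44 RPKM in Stab1-/- and at 0.966, 0.0703, 0.0656 and 0.457 RPKM in wildtype livers (log2 fold change 3.31, SE 0.45, adjusted p = 0.00380 by edgeR). The Stab1-/- values were even, while wildtype replicates 2 and 3 had 2 reads each and replicates 1 and 4 had 29 and 14. Cyp2c54, at 7.23, 10, 11 and 11.9 RPKM against 3.38, 0.736, 1.43 and 3.74 RPKM, was likewise higher in wildtype replicates 1 and 4 than in 2 and 3. Cyp2c67 was 18.1 ± 2.08 against 4.75 ± 2.36 RPKM (log2 fold change 1.84, SE 0.27, adjusted p = 0.00562 by edgeR). Cyp2c50 was 78.7 ± 13.4 against 26.7 ± 10.7 RPKM, and the abundant Cyp2c29 was 334 ± 32.8 against 206 ± 17.7 RPKM (log2 fold change 0.61, SE 0.10, adjusted p = 0.0114 by edgeR). Cyp2c70, the enzyme that makes muricholic bile acids in mice, named after its value was seen, was 948 ± 116 against 565 ± 122 RPKM (log2 fold change 0.66, SE 0.15, adjusted p = 0.0373 by edgeR).

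Cyp2c68 went the other way, at 97.0, 77.2, 83.2 and 69.9 RPKM in Stab1-/- and 102, 138, 150 and 106 RPKM in wildtype livers (log2 fold change -0.70, SE 0.14, adjusted p = 0.0262 by edgeR). Its call was lost without Stab1-/- replicate 2, 3 or 4 and without wildtype replicate 3, whereas Cyp2c38, Cyp2c54 and Cyp2c67 were called in all 19 settings. Cyp2c39, also chosen after its value was seen, had 81.5 ± 14.4 RPKM in Stab1-/- livers and 17, 0.652, 0.507 and 21.8 RPKM in the wildtype libraries, and missed the threshold (adjusted p = 0.0614 by edgeR). Summed over the list, the level was 1718 to 1934 RPKM in Stab1-/- and 1088 to 1306 RPKM in wildtype livers. The Cyp2c genes are close copies of each other, so that reads may be assigned to a neighbour and single members are uncertain.

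The upstream sequences of Cyp2c38 and Cyp2c67, which rose, and of Cyp2c68, which fell, are shown because the 3 genes lie in 1 cluster on chromosome 19. Capitals mark CAAAGTCCA, the motif of the hepatocyte factor HNF4A, and TATAAA, the TATA box, on either strand.
Cyp2c38: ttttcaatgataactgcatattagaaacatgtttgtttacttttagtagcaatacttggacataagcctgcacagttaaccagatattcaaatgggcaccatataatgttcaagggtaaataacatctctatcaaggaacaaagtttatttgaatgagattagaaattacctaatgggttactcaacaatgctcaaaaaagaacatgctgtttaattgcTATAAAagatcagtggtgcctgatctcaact
Cyp2c67: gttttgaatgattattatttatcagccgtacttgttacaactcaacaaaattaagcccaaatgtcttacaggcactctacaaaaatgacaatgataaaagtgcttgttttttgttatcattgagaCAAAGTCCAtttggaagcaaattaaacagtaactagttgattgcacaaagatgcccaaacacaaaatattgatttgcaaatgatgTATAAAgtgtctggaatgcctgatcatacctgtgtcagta
Cyp2c68: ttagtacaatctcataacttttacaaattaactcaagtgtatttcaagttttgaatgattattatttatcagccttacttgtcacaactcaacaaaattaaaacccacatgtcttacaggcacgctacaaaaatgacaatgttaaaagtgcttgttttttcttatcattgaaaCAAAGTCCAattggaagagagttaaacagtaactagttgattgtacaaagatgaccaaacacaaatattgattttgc
These windows are chr19:39463076-39463325, chr19:39649043-39649292 and chr19:39741102-39741351, all on the minus strand of GRCm38.p6 (RefSeq), 250 bases each, 5′ to 3′. CAAAGTCCA occurred in 5 of the 11 tested Cyp2c genes with a window and in 0.451% of all genes, and TATAAA in 5 of the 11 and in 14.3% of all genes. Of the 6 called genes with a window, 3 held CAAAGTCCA and 4 held TATAAA. Cyp2c67 and Cyp2c68 share CAAAGTCCA and a longest identical run of 27 bases, and TATAAA is not among the letters of the Cyp2c68 window. The 2 windows are offset, with CAAAGTCCA 125 bases before the start in Cyp2c67 and 77 in Cyp2c68. TATAAA of Cyp2c67 lies 40 bases before its start. At the same spacing it would lie past the end of the Cyp2c68 window, which therefore cannot show whether Cyp2c68 has one.

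Other drug-metabolizing enzymes moved in both directions. Of 49 tested conjugating enzymes 2 were higher, both of them sulfotransferases of the Sult2a family that sulfate bile acids and steroids. Sult2a3 had 43.5, 12.6, 19.4 and 15.1 RPKM in Stab1-/- and 4.01, 7.40, 1.98 and 2.95 RPKM in wildtype livers (log2 fold change 2.38, SE 0.42, adjusted p = 0.0130 by edgeR). Stab1-/- replicate 1 was the highest, and the genotypes did not overlap. Sult2a6 was 73.9 ± 14.6 against 33.0 ± 5.55 RPKM. The 3 lower members were the glutathione transferases Gstm2 (24.6 ± 2.46 against 42.1 ± 6.63 RPKM) and Gstm3 (6.17 ± 1.20 against 13.2 ± 2.99 RPKM) and the bilirubin-conjugating Ugt1a1 (31.2 ± 5.02 against 50.8 ± 11.6 RPKM). Ugt1a1 was called in 3 of the 8 fits that leave out 1 library, the other four in all of them.

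Among 55 other phase I enzymes 3 were higher, among them Cyp2b13 (18.7 ± 2.54 against 10.1 ± 2.49 RPKM) and Cyp2g1 (4.11 ± 1.26 against 1.89 ± 0.404 RPKM). The calls of Cyp2b13 and Cyp2g1 were each kept in 2 of the 8 fits that leave out 1 library. The carboxylesterases Ces1g (14.8 ± 2.90 against 28.6 ± 6.13 RPKM) and Ces2e (38.1 ± 3.62 against 68.5 ± 7.82 RPKM) were lower in all 19 settings.

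Bile acid handling had 3 higher genes and no lower gene among 33 tested (median log2 fold change -0.01). Baat, which conjugates bile acids with taurine, was at 98.0, 75.3, 60.6 and 84.2 RPKM in Stab1-/- and 40.6, 47.5, 26.6 and 20.8 RPKM in wildtype livers (log2 fold change 1.15, SE 0.22, adjusted p = 0.0188 by edgeR). Acox2, the peroxisomal oxidase that shortens the bile acid side chain, was 144 ± 5 against 90.1 ± 9.77 RPKM, and Slco1a4, an uptake transporter for bile acids and other anions, was 80.6 ± 8.41 against 46.2 ± 7.51 RPKM. Cdo1, the first enzyme from cysteine to taurine, was the only higher gene of 57 for the urea cycle and amino acid breakdown, at 1412 ± 233 against 851 ± 98.6 RPKM (log2 fold change 0.64, SE 0.13, adjusted p = 0.0272 by edgeR). Without Stab1-/- replicate 4 a single bile acid gene was called. Calls of Baat, Acox2 and Cdo1 were kept in 5, 5 and 3 of the 8 fits that leave out 1 library, and that of Slco1a4 in all 8.

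The synthesis of long polyunsaturated fatty acids was lower at 3 successive enzymes. Fads2 and Fads1, the delta-6 and delta-5 desaturases, and Elovl5, the elongase between them, were the only called genes among 31 of lipogenesis (median log2 fold change -0.18). Fads2 was at 125, 128, 134 and 96.4 RPKM in Stab1-/- and at 200, 198, 221 and 249 RPKM in wildtype livers (log2 fold change -0.94, SE 0.12, adjusted p = 0.00342 by edgeR). No library of one genotype reached the range of the other. Elovl5 was 128 ± 9.78 against 211 ± 25.6 RPKM (log2 fold change -0.81, SE 0.11, adjusted p = 0.00450 by edgeR) and Fads1 was 79.7 ± 6.98 against 124 ± 12.5 RPKM (log2 fold change -0.74, SE 0.11, adjusted p = 0.00605 by edgeR). All 3 were lower in each of the 19 settings. Cholesterol synthesis had 1 lower gene of 28, Hmgcs1, the synthase of HMG-CoA (37.2 ± 1.83 against 55.9 ± 12.6 RPKM), and fatty acid oxidation had 1 of 41, Cyp4a31 (32.9 ± 1.64 against 44.5 ± 5.87 RPKM). In cholesterol synthesis 21 log2 fold changes were negative and 7 positive (median -0.23). In fatty acid oxidation 38 were negative and 3 positive (median -0.25), and DESeq2 called 6 genes lower and 1 higher. Hmgcs1 and Cyp4a31 were each called in 2 of the 8 fits that leave out 1 library.

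Gluconeogenesis was lower at 3 of its enzymes, while the glycogen regulator Ppp1r3b was higher. Fbp1, fructose-1,6-bisphosphatase, was 460 ± 21.1 against 672 ± 44.3 RPKM (log2 fold change -0.64, SE 0.10, adjusted p = 0.00797 by edgeR). Pck1, the cytosolic PEP carboxykinase, stood at 402, 517, 475 and 521 RPKM in Stab1-/- and 567, 869, 1102 and 822 RPKM in wildtype livers. G6pc, glucose-6-phosphatase, was at 122, 111, 109 and 108 RPKM against 120, 268, 184 and 171 RPKM. For Pck1 and G6pc wildtype replicate 1 was near or within the Stab1-/- range, and their calls (adjusted p = 0.0328 and 0.0455 by edgeR) were kept in 2 of the 8 fits that leave out 1 library. Ppp1r3b, which brings protein phosphatase 1 to glycogen, was 94.0 ± 20 against 47.1 ± 7.19 RPKM (log2 fold change 0.90, SE 0.15, adjusted p = 0.00919 by edgeR). Fbp1 and Ppp1r3b were called in all 19 settings, and the list of 43 genes had 1 higher and 3 lower members.

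Hepatocytes near the portal vein and near the central vein express different genes, and both zones had lower members. Of 22 periportal genes 5 were lower and none higher (median -0.41), among them Aldh1b1, a mitochondrial aldehyde dehydrogenase, at 37.0 ± 7.74 against 72.9 ± 9.38 RPKM (log2 fold change -1.06, SE 0.16, adjusted p = 0.00579 by edgeR), beside Pck1, Fbp1 and G6pc. The fifth, Etnppl, a phosphoethanolamine lyase named after its value was seen, had a log2 fold change of -1.05. Of 25 pericentral genes 4 were lower and 1 was higher (median -0.20). The summed level of the pericentral list was nevertheless higher, at 6514 to 7929 RPKM in Stab1-/- and 5112 to 5807 RPKM in wildtype libraries. Glul, the glutamine synthetase of the hepatocytes around the central vein, was at 180, 184, 152 and 181 RPKM against 303, 263, 261 and 339 RPKM (log2 fold change -0.83, SE 0.13, adjusted p = 0.00618 by edgeR). Oat, ornithine aminotransferase of the same cells, was 35.6 ± 4.05 against 77.2 ± 16.9 RPKM (log2 fold change -1.22, SE 0.17, adjusted p = 0.00405 by edgeR), and the glutamate transporter Slc1a2 was 2.32 ± 0.308 against 4.67 ± 1.35 RPKM. The genotypes did not overlap for Glul, Oat or Slc1a2. Slc13a3, a dicarboxylate transporter, was 64.3 ± 11.4 against 89.4 ± 0.419 RPKM, and Rgn, of vitamin C synthesis, was higher at 1186 ± 154 against 777 ± 111 RPKM. The urea cycle list also had Amt, of glycine cleavage, lower (21.9 ± 1.62 against 29.4 ± 2.76 RPKM). Slc13a3, Rgn and Amt were each called in 2 of the 8 fits that leave out 1 library. Aldh1b1, Glul, Oat and Slc1a2 were called in all 8. Of 54 tested hepatocyte transcription factors none was called by edgeR, 12 had an unadjusted p under 0.05, and DESeq2 called 3 higher and 2 lower.

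Of the plasma proteins made by hepatocytes, a few were higher and few fell. Mug1, a murinoglobulin that traps proteases, was at 108, 124, 165 and 133 RPKM in Stab1-/- and 19.6, 17.8, 18.3 and 54.8 RPKM in wildtype livers (log2 fold change 2.16, SE 0.35, adjusted p = 0.00919 by edgeR). Wildtype replicate 4 was the highest of its group and still below all Stab1-/- libraries. The related A2m was 1.55 ± 0.516 against 0.660 ± 0.0806 RPKM, and these were the 2 higher genes among 34 protease inhibitors. Orm1, an acute-phase glycoprotein, stood at 13.9, 5.91, 6.47 and 17.6 RPKM against 2.12, 2.23, 1.10 and 0.366 RPKM (log2 fold change 2.83, SE 0.47, adjusted p = 0.0102 by edgeR). It was the only called gene of 24 acute-phase proteins, whose median log2 fold change was -0.08. C3, the central complement protein, was 1153 ± 117 against 1717 ± 210 RPKM and was the only called gene of 50 for complement and coagulation. Of the 8 fits that leave out 1 library, A2m was called in 2, C3 in 3, and Mug1 and Orm1 in all. Apoa4 (29.7 ± 1.89 against 39.9 ± 5.89 RPKM) and Pltp (17.9 ± 1.82 against 24.1 ± 2.87 RPKM), of lipoprotein assembly and remodelling, were lower among 23 genes, each call kept in 1 of the 8 fits that leave out 1 library. Mug1 and Orm1 have close gene copies, so reads may pass between them.

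Hormone-dependent genes changed in both directions. Bcl6, a transcriptional repressor that represses female-biased liver genes, was at 11.1, 14.9, 3.95 and 3.92 RPKM in Stab1-/- and at 1.92, 1.82, 1.47 and 1.66 RPKM in wildtype livers (log2 fold change 2.21, SE 0.39, adjusted p = 0.0144 by edgeR). Stab1-/- replicates 1 and 2 were far above replicates 3 and 4, and all were above wildtype. Cish, a target of growth hormone signalling that feeds back on its receptor, was lower at 4.36, 3.24, 6.18 and 10.7 RPKM against 19.7, 15.5, 13.9 and 12.3 RPKM (adjusted p = 0.0323 by edgeR). Hsd3b5, a growth hormone-dependent steroid dehydrogenase, was 1.58 ± 0.716 against 0.432 ± 0.0832 RPKM, with 16 to 41 reads per Stab1-/- and 6 to 9 per wildtype library. Of 30 genes of the growth hormone and IGF axis 2 were higher and 2, Cish and Igf2, lower. The Y-linked genes of the sex-linked list were at 0 in 7 libraries and 0.036 RPKM of Uty in wildtype replicate 3, and Xist was at 44.8 to 111 RPKM in all 8, the RNA pattern of females.

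Glucocorticoid and fasting genes were mixed, with 2 of 34 higher and 3 lower. Arrdc3, an arrestin-like adaptor, was 60.9 ± 24.1 against 25.1 ± 5.11 RPKM (log2 fold change 1.18, SE 0.22, adjusted p = 0.0157 by edgeR), and Sgk1, a kinase induced by glucocorticoids, was 13.6 ± 3.34 against 20.3 ± 2.41 RPKM with overlapping libraries. Of 26 immediate early genes 3 were lower and none higher. Gadd45g, a stress and growth arrest gene, was at 5.06, 3.85, 4.60 and 3.99 RPKM against 17.2, 7.09, 10.5 and 10.3 RPKM (log2 fold change -1.46, SE 0.24, adjusted p = 0.00931 by edgeR). The growth regulator Myc (1.90 ± 0.184 against 3.01 ± 0.519 RPKM) and Zfp36, which destabilizes cytokine mRNAs (15.2 ± 1.56 against 23.4 ± 4.73 RPKM), were the others. Myc was called in 1 and Zfp36 in 2 of the 8 fits that leave out 1 library, and Gadd45g and Arrdc3 in all 8. The clock repressor Bhlhe40 (23.6 ± 4.09 against 33.0 ± 4.83 RPKM, overlapping) was the only called gene of 20 for the circadian clock.

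Most ribosomal protein genes had slightly higher values, but few were called. Of 82 tested genes 75 had a positive log2 fold change (median 0.22) and 57 had Stab1-/- libraries entirely above wildtype, against 14.9% of all tested genes that did not overlap in either direction, but only Rpl5 and Rpl15 were called higher. Rpl5 was 386 ± 62.3 against 210 ± 64.4 RPKM (adjusted p = 0.0455 by edgeR) and Rpl15 was 291 ± 49.6 against 165 ± 40.3 RPKM (adjusted p = 0.0330 by edgeR). Both calls were lost without any 1 of the 4 Stab1-/- libraries and without wildtype replicate 3, and 5 genes were higher without wildtype replicate 2. The summed level of the list was 32320 to 36670 RPKM in Stab1-/- and 20870 to 29170 RPKM in wildtype libraries, lowest in wildtype replicate 4. Nuclear long noncoding RNAs, a list kept as a sign of RNA quality, summed to 272 to 403 RPKM against 202 to 262 RPKM, also without overlap, with 9 of 10 log2 fold changes positive and none called higher, and their part in the group differences was not tested. Eef1a1 and Tpt1, of translation, were 2640 ± 77.3 against 1935 ± 83.1 RPKM and 2217 ± 206 against 1408 ± 311 RPKM, with adjusted p of 0.0785 and 0.0561 by edgeR. edgeR called no gene among 51 translation factors, 77 mitochondrial ribosomal proteins, 79 respiratory chain subunits or 41 proteasome subunits, with medians of 0.08 to 0.13, and 17, 16, 14 and 13 of them had an unadjusted p under 0.05. DESeq2 called 7, 4, 1 and 4 of these higher, and 19 ribosomal protein genes. In each library the 10 most abundant genes held 22 ± 2.03% (Stab1-/-) against 26.1 ± 2.08% (wildtype) of all counts, with an exact permutation p of 0.0286 (two-sided), the smallest that 4 against 4 allow. The part of this difference in the ribosomal protein levels was not tested.

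Among interferon-inducible genes few were called. Of 73 tested genes 3 were higher and none lower, and 58 had a positive log2 fold change (median 0.24). Ifit1, an antiviral RNA-binding protein, was at 3.77, 4.16, 2.98 and 3 RPKM in Stab1-/- and 2.25, 1.68, 1.36 and 1.24 RPKM in wildtype livers (log2 fold change 1.0, SE 0.19, adjusted p = 0.0194 by edgeR). Ifi27 was 29.8 ± 6.55 against 16.6 ± 2.22 RPKM. Ifi44 stood at 4.83, 5.97, 1.81 and 2.15 RPKM against 1.21, 1.42, 1.10 and 1.25 RPKM, again with Stab1-/- replicates 1 and 2 highest. The number of higher genes was 0 without wildtype replicate 3, 1 without Stab1-/- replicate 1 or 2, 2 without wildtype replicate 1 or 4, and 6 without Stab1-/- replicate 3 or wildtype replicate 2. In the Ifi200 family, apart from Ifi202b, Ifi203 was higher (10.4 ± 1.96 against 6.54 ± 0.516 RPKM, kept in 1 of the 8 fits that leave out 1 library) and Aim2, the sensor of cytosolic DNA, was lower at 1.48, 1.38, 1.92 and 1.21 RPKM against 3.42, 2.58, 2.56 and 2.44 RPKM (adjusted p = 0.0157 by edgeR). Aim2 and Ifi203 lie in the same gene cluster and had opposite signs. None of 30 genes of MHC and antigen presentation was called by edgeR, 6 had an unadjusted p under 0.05, and DESeq2 called 1 lower.

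The upstream window of Ifit1 is shown because it holds the interferon-stimulated response element, searched as GAAA, any 2 bases and GAAA on either strand and marked in capitals. It is chr19:34640639-34640888 on the plus strand of GRCm38.p6 (RefSeq), 5′ to 3′.
Ifit1: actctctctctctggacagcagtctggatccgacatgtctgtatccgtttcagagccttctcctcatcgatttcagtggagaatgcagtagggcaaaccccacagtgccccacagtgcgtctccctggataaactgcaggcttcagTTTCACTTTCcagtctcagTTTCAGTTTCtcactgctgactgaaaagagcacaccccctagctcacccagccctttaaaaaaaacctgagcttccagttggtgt
The motif was found in 22 of the 53 tested interferon-inducible genes with a window (41.5%) and in 3.46% of all genes, and lies 104 and 85 bases before the start of Ifit1. Of the 2 called genes with a window, only Ifit1 held it.

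Few markers of immune cells were called. Cx3cr1, the fractalkine receptor of monocytes, had 23 to 40 reads in Stab1-/- and 5 to 11 reads in wildtype libraries (0.833 ± 0.160 against 0.217 ± 0.0742 RPKM, adjusted p = 0.00787 by edgeR) and was the only called gene of 19 for monocytes and dendritic cells. Ccr3, the eotaxin receptor, was 1.23 ± 0.416 against 0.383 ± 0.106 RPKM (adjusted p = 0.0157 by edgeR), 1 of 6 tested markers of eosinophils, basophils and mast cells. Neutrophil markers had a median log2 fold change of 0.51 over 16 genes, 14 of them positive, and none was called by edgeR, while 8 had an unadjusted p under 0.05 and DESeq2 called 2 higher. S100a9, of the neutrophil protein calprotectin, was at 202, 95.5, 143 and 91.5 RPKM against 69.1, 67.2, 23.1 and 10.9 RPKM (adjusted p = 0.0757 by edgeR). The libraries did not overlap, and wildtype replicates 3 and 4 were well below replicates 1 and 2. Of 17 B lymphocyte and plasma cell markers only Sdc1, which hepatocytes also express, was lower (68.8 ± 5.64 against 96.6 ± 15.3 RPKM), and none of 15 T and NK cell or 18 erythroid genes was called by edgeR or DESeq2, with 2 and 3 at an unadjusted p under 0.05. Il6st, the shared receptor subunit of the interleukin-6 family, was 14.7 ± 0.869 against 19.9 ± 2.23 RPKM, and was the only called gene of 43 for cytokines and their signalling.

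Scavenger receptors other than Stab1 were mostly close to wildtype. Stab2, its paralogue on the same sinusoidal cells, named after its value was seen, was 14.3 ± 2.02 against 15 ± 2.26 RPKM (log2 fold change -0.17, SE 0.14), and Lyve1 was 11.4 ± 0.571 against 11.2 ± 0.869 RPKM. Of 29 scavenger and clearance receptors 2 were higher. Cd209f, a C-type lectin of Kupffer cells, was at 20.6, 14.2, 14.4 and 11.5 RPKM against 7.32, 9, 6.11 and 5.83 RPKM (log2 fold change 1.01, SE 0.18, adjusted p = 0.0124 by edgeR), and Scara5, a ferritin receptor of stromal cells, was 1.06 ± 0.518 against 0.199 ± 0.148 RPKM. Cd209f was the only called gene of 35 Kupffer cell and macrophage markers. Esm1, a proteoglycan of endothelial tip cells and among the 15 genes that rose most, had 20 to 27 reads against 3 to 8 reads (1.10 ± 0.103 against 0.222 ± 0.0941 RPKM). Of 42 endothelial genes without Stab1, the VEGF receptor Kdr (10.9 ± 0.711 against 13.8 ± 1.23 RPKM) and the nuclease Dnase1l3 (13.7 ± 0.761 against 20 ± 3.31 RPKM) were lower (median -0.23). Kdr was called in 1 and Dnase1l3 in 2 of the 8 fits that leave out 1 library. Among 16 ligands and sorting partners of the stabilins, Tgfbi, a matrix protein taken up by stabilins, was at 25.4, 29.7, 29.0 and 30.6 RPKM against 40.1, 39.9, 41.0 and 50 RPKM (log2 fold change -0.67, SE 0.12, adjusted p = 0.0159 by edgeR), and its call was lost only without Stab1-/- replicate 1. Of 58 lysosomal genes 2 were lower, among them Psap, the precursor of the saposins (181 ± 22.7 against 251 ± 15.6 RPKM).

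The remaining lists had few calls. Purine salvage and breakdown had 2 higher genes of 25, Gda, the guanine deaminase (11 ± 1.99 against 5.78 ± 1.06 RPKM), and Pnp2, a nucleoside phosphorylase. Pnp2 was at 5.95, 4.16, 4.89 and 5.02 RPKM against 2.26, 0.657, 0.153 and 2.06 RPKM, and Klhl33, its neighbour in the genome, was at 6.83, 5.84, 7.82 and 5.06 RPKM against 2.15, 0.252, 0.117 and 2.17 RPKM. For Pnp2 and Klhl33, as for Cyp2c38 and Cyp2c54, wildtype replicates 1 and 4 were above replicates 2 and 3. Of 76 cytoskeleton and adhesion genes 5 were lower, among them Vim (23.1 ± 1.19 against 30.8 ± 2.98 RPKM), Myh9 (19.1 ± 1.51 against 25.8 ± 3.30 RPKM), Lmnb1 and Anxa6. Of chromatin regulators 1 of 72, the acetyltransferase Kat2b, was higher (27.8 ± 1.18 against 19.7 ± 0.789 RPKM), the chaperone Hspb8 was the only one called of 25 heat shock proteins (54.7 ± 8.34 against 35.5 ± 4.37 RPKM), and Sel1l, of protein degradation at the endoplasmic reticulum, 1 of 32 in its list (21.6 ± 2.85 against 29.8 ± 3.12 RPKM). Of the 8 fits that leave out 1 library, Kat2b, Sel1l and Myh9 were called in 1, Hspb8, Pnp2 and Lmnb1 in 2, Vim and Anxa6 in 3, Klhl33 in 4 and Gda in all. No gene of iron handling (41 tested), of NRF2 targets (35), or of cholangiocytes (18), megakaryocytes (7) or adipocytes (4) was called by edgeR, and 8, 11, 5, 3 and 2 had an unadjusted p under 0.05. DESeq2 called 3 iron genes lower and 1 higher, 2 NRF2 targets lower, 3 cholangiocyte genes lower and 1 higher, 1 adipocyte gene higher and no megakaryocyte gene.

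**Figure D5:**
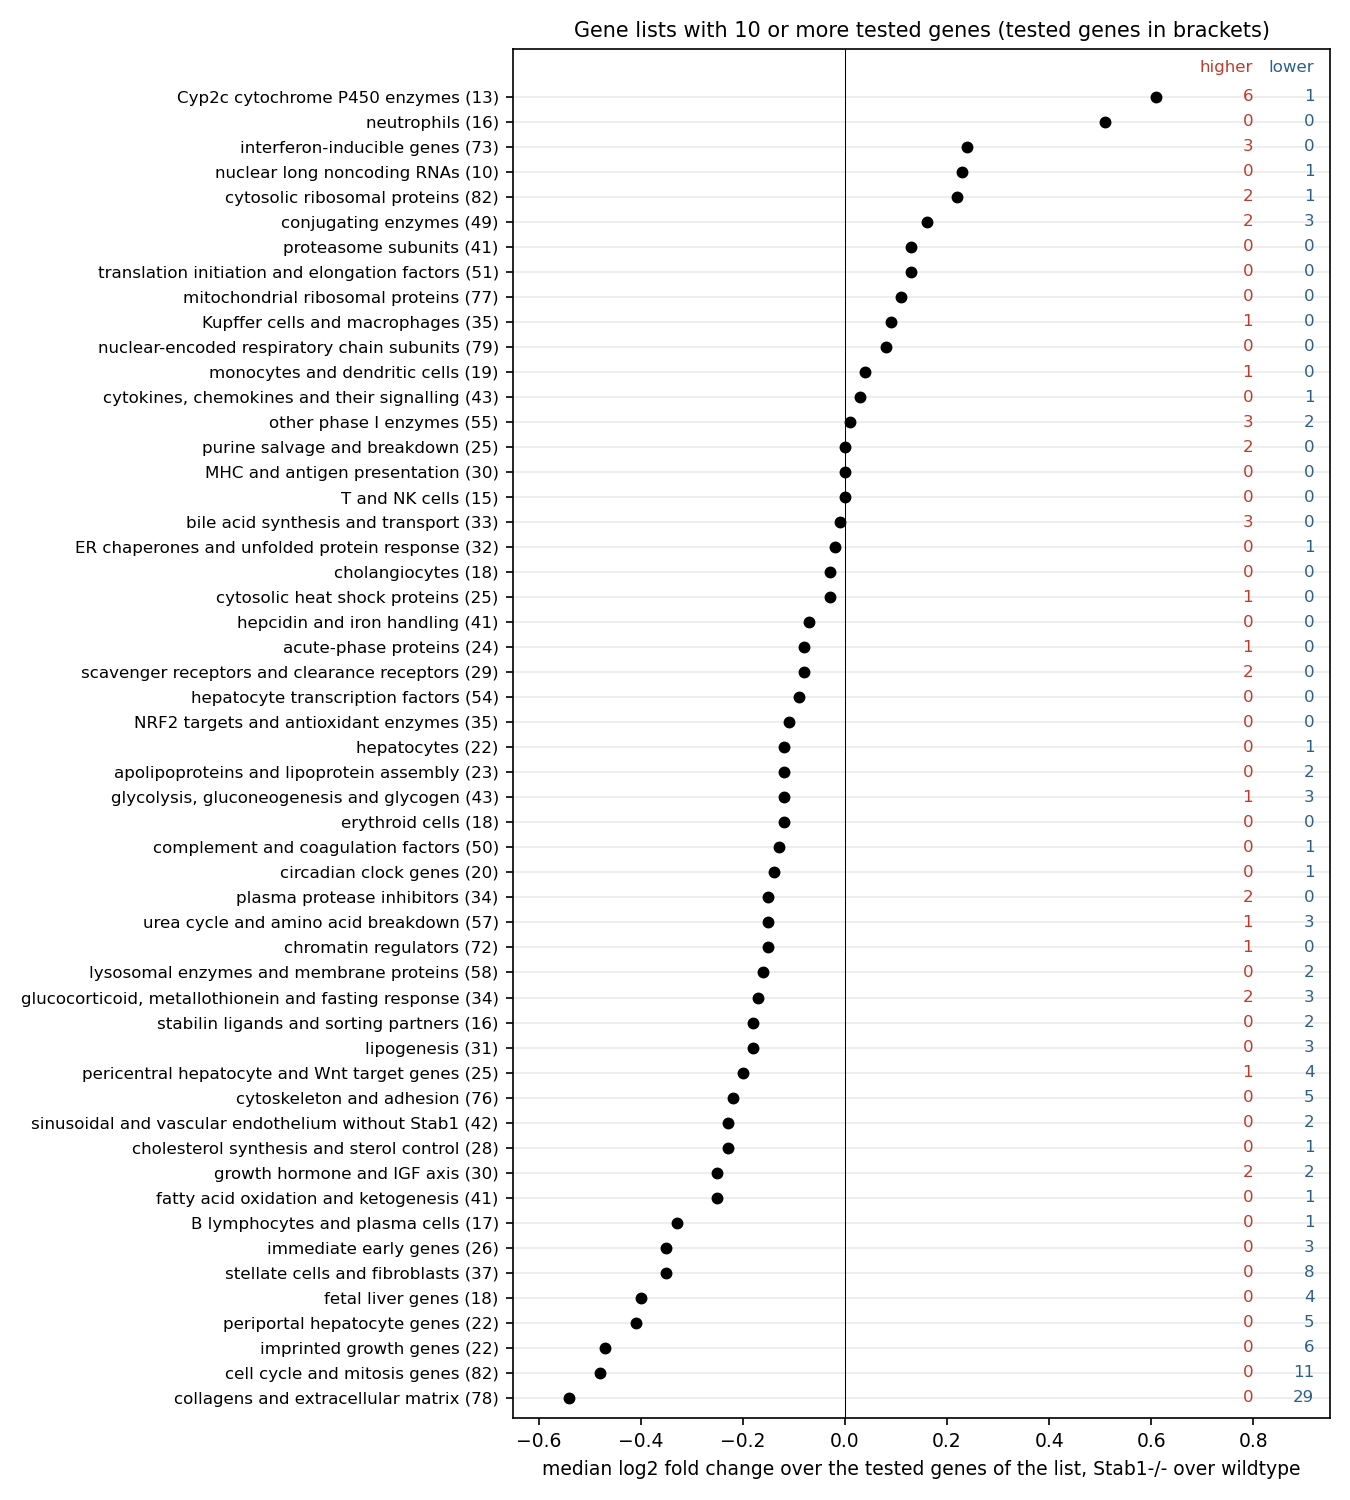
Median log2 fold change of Stab1-/- over wildtype (horizontal axis) over the tested genes of each list with 10 or more of them, with the number of higher (red) and lower (blue) genes at the right. Matrix, cell cycle, imprinted and periportal genes lie lowest, and Cyp2c enzymes, neutrophil markers and interferon-inducible genes highest.

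Some of the largest falls were in genes with no common function. Rpl26, a ribosomal protein, had 14, 6, 10 and 6 reads in Stab1-/- and 445, 426, 366 and 293 reads in wildtype libraries, whereas its processed copy Gm15772, named after its value was seen, had 1076, 1012, 876 and 897 reads against 409, 392, 415 and 285. The sum of both was 886 to 1090 reads in Stab1-/- and 578 to 854 in wildtype livers, with Rpl26 lower and Gm15772 higher. Only uniquely mapped reads were counted, and reads of these near-identical genes may be assigned to either copy, so the Rpl26 value is uncertain. Camk2b, a calcium-dependent kinase of neurons, had 4, 0, 0 and 1 reads in Stab1-/- and 44, 66, 109 and 75 reads in wildtype libraries, and the noncoding RNA C730036E19Rik had 0, 1, 0 and 1 reads against 26, 15, 17 and 76. Both were near absent from Stab1-/- livers. Sp110, a nuclear body protein, was 0.192 ± 0.0738 against 1.45 ± 0.113 RPKM, Ildr2, a membrane protein of the endoplasmic reticulum, 0.176 ± 0.0690 against 1.30 ± 0.272 RPKM, and the noncoding RNA 2610507I01Rik 1.21 ± 0.185 against 4.43 ± 0.591 RPKM. Ppfia4 and Tenm4 had at most 4 reads in a Stab1-/- library and 11 to 15 in a wildtype library. Among the genes that rose most were 9130409I23Rik (3.57 ± 0.789 against 0.316 ± 0.256 RPKM) and the transcribed pseudogenes Gm10319 (3.29 ± 1.17 against 0.404 ± 0.209 RPKM) and Gm3002 (0.717 ± 0.161 against 0.127 ± 0.0489 RPKM), whose reads may also be shared with related genes.

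Of 85 tested genes within 10 Mb of Stab1, by the RefSeq order of genes, 5 were lower (5.88%) and none higher, with a median log2 fold change of 0.03. Fam25c was at 7.73, 8.24, 5.08 and 5.88 RPKM in Stab1-/- and at 65.6, 102, 66.2 and 55.7 RPKM in wildtype livers (log2 fold change -3.50, SE 0.22, adjusted p = 5.15e-06 by edgeR), its neighbour Gm3219 had 12 ± 3.53 against 28.6 ± 3.52 RPKM, and the glutamate receptor gene Grid1 had 0 to 2 reads against 13 to 19. The other 2 were Gdf10, a growth factor of the BMP family (3.40 ± 0.327 against 7.13 ± 0.781 RPKM), and Vstm4 (2.44 ± 0.242 against 3.42 ± 0.218 RPKM). Gm3219, Gdf10 and Vstm4 were named after their values were seen. Within 10 Mb of Ifi202b on chromosome 1, 3 of 145 tested genes were higher and 5 lower (5.52%), including Ifi203, 9130409I23Rik, Aim2 and Ildr2.

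Pnliprp1, a lipase of pancreatic acinar cells, was at 1.31, 2.75, 1.53 and 2.66 RPKM in Stab1-/- and at 28.9, 17.9, 41.0 and 15.5 RPKM in wildtype livers (log2 fold change -3.72, SE 0.35, adjusted p = 0.000220 by edgeR). It was the only called gene of 5 tested pancreatic markers, whose median log2 fold change was 0.40, with 3 positive and 2 negative. All 28 pancreatic genes of the list, tested or not and with Pnliprp1 among them, summed to 23.4 to 33.15 RPKM against 28.75 to 59.5 RPKM. Of these genes 16 were at 0 in all 8 libraries. Of 5 tested intestinal markers Apoa4 alone was called. The part of pancreatic tissue in the Pnliprp1 value was not tested.

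At E17.5, where 3 Stab1-/- and 4 wildtype libraries were measured, some of the same genes differed and others did not. Igf2 was 1173 ± 40.6 RPKM in Stab1-/- (n = 3) and 1112 ± 77.8 RPKM in wildtype fetuses (n = 4), H19 was 5325 ± 111 against 5479 ± 253 RPKM, and Afp was 20579 ± 2271 against 18457 ± 788 RPKM, each with overlapping libraries. Between these stages the wildtype level of Afp thus went from 18457 to 112 RPKM. Of the 15 genes that fell most at 2 weeks, 7 had Stab1-/- libraries entirely below wildtype at E17.5 as well, among them Rpl26 (2.97 ± 2.08 against 138 ± 87.5 RPKM), Camk2b (0.0942 ± 0.103 against 1.04 ± 0.216 RPKM) and Sp110 (0.292 ± 0.0825 against 2.85 ± 1.90 RPKM). Among the 7 is Stab1 itself, without which it was 6 of 14. The other 8 overlapped. Of the 15 that rose most, 5 lay entirely above wildtype at E17.5, 1 (Pnp2) entirely below and 9 overlapped. Cyp2c67 and Cx3cr1 were among the 5, at 4.48 ± 1.37 against 1.37 ± 0.765 RPKM and 4.2 ± 0.234 against 2.79 ± 0.284 RPKM. The share of all genes whose libraries did not overlap at E17.5 was not counted, so these counts have no background. The difference between the stages was not tested.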

How the data were processed

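Total RNA of mouse liver was purified with a spin-column kit and sequenced on an Illumina platform. The authors deposited 1 table of 19464 gene rows, which gives for each library the count of uniquely mapped reads, the RPKM and the percent of the gene covered. The deposited counts are raw and a dash was read as 0. The RPKM that the authors computed from count, gene length and library total could be recomputed from these columns. The percent coverage that the authors deposited was not used. Aligner, genome build, annotation and strand setting are not given in the sources used here, so overlapping and near-identical genes are uncertain.

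Counts were tested with the quasi-likelihood test of edgeR 4.0.16 in R 4.3.3 (TMM scaling, genes kept by filterByExpr at its defaults of 10 counts and 15 in total), 4 Stab1-/- against 4 wildtype libraries, two-sided, with Benjamini-Hochberg adjustment and a threshold of 0.05. The SE of a log2 fold change was derived from the F statistic. Means ± SD are of RPKM. Exact permutation tests were used for single values. DESeq2 1.42.0, limma 3.58.1 on log2(RPKM + 0.1) and log2(RPKM + 1), other scalings, GC-content offsets, a replicate block, the 15 libraries together and leaving out each library were the alternatives, and the procedure was tested on simulated data. Replicates differed by more than counting noise (smallest chi-square per degree of freedom 6.81).

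The comparison and the 61 gene lists (2159 of 2198 genes matched) were chosen with earlier results of these data known. Named genes were Stab1, Actb, Tnf, the 15 called genes with the largest and the 15 with the smallest log2 fold change among those whose libraries did not overlap (Ifi202b not counted), and in each list the 4 called members with the smallest p in each direction, or the 2 most abundant members where none was called. Dlk1, Sparc, Lrat, Dcn and Lyve1 lie outside this rule, like the genes marked as named after their values were seen. Upstream windows came from RefSeq (GRCm38.p6), which matched 99.7% of rows and served otherwise for gene order and synonyms. GC content was taken from the longest GENCODE transcript of each gene. A few single genes are not reported here, but stay in the fits and in the counts.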

Additional observations from a re-analysis of the deposited data

Results flagged for a closer look

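In 28 of 409 groups of 4 libraries, 1 library stood apart from the other three by Dixon's test, against about 20.4 by chance at 1 in 20. Wildtype replicate 4 accounted for 9 of them and Stab1-/- replicate 1 for 7.

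Wildtype replicate 4 was apart for Mug1 (54.8 RPKM), Afp (35.8 RPKM), Tgfbi (50 RPKM), Sepp1 (3319 RPKM), Col1a2 (32.4 RPKM), Col4a1 (37.4 RPKM), Anxa6 (56.5 RPKM), Spp1 (46.5 RPKM) and the summed level of nuclear long noncoding RNAs (202 RPKM). Stab1-/- replicate 1 was apart for Scara5 (1.84 RPKM), Ppfia4 (0.0501 RPKM), Ndufa4 (1329 RPKM), Psmb1 (201 RPKM), Arrdc3 (96.9 RPKM), Mgst1 (2377 RPKM) and Gda (14 RPKM).

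The other libraries that stood apart, without 1 of the 28 that is not reported here, were Stab1-/- replicate 2 for Grid1 (0 RPKM), Apoa4 (32.5 RPKM) and Atf5 (235 RPKM), Stab1-/- replicate 3 for Glul (152 RPKM) and Hpx (2970 RPKM), and Stab1-/- replicate 4 for the summed level of immediate early genes (217 RPKM). Among wildtype livers they were replicate 1 for Sgk1 (16.7 RPKM) and Aim2 (3.42 RPKM) and replicate 3 for Bex1 (1.69 RPKM), Gstm3 (8.77 RPKM) and Uty (0.036 RPKM).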

How the results depend on the processing

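The counts of higher and lower genes moved most. They were 420 and 441 with DESeq2, 197 and 272 without the filter, 316 and 387 with the 15 libraries together, 137 and 118 with library totals, and 120 and 99 or 143 and 109 with limma and a pseudocount of 0.1 or 1. The cause was not tested. The share of higher genes among those called, 35.0% in the reported fit, was 53.7% with library totals, which moved the median of all genes from -0.013 to 0.078, and 54.8% and 56.7% with limma. Leaving out 1 library, which also leaves fewer samples, gave 41 to 294 higher and 75 to 354 lower genes. The Stab1 log2 fold change was called in all 19 settings and lay between -3.38 and -2.30. Of the 113 genes called that the naming rule chose, 95 were called with GC-content offsets, 52 were called in all 8 fits that leave out 1 library and 45 in all 19 settings.

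A replicate block in the fit gave 642 higher and 539 lower genes, and block and GC-content offsets together gave 376 and 361. Deviations of same-numbered libraries correlated at 0.204, 0.0233, 0.191 and 0.146. Those of different-numbered libraries ran from -0.258 to 0.283, most of them negative. Stab1-/- replicates 3 and 4 correlated best with their own number, and Stab1-/- replicate 1 with wildtype replicate 2 (0.283). The labels name no pairs, so the reported fit has no block. Whether the numbers mark pairs was not tested.

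None of the 340 called genes changed direction in any of the 19 settings. These settings refit the same libraries. In all 119 higher and 207 of the 221 lower genes the genotypes did not overlap, so leaving out 1 library could not turn their RPKM difference round. Of named genes that were not called, log2 fold changes that changed sign were these. With library totals they were 0.04 for Actb, 0.04 for Atf5, 0.02 for Hpx, 0.05 for Hp, 0.01 for Gzma and 0.09 for Spp1. With GC-content offsets, Actb was 0.01, Atf5 0.06, Hpx 0.02, B2m -0.11, Hp 0.06 and Clec1b -0.09, and with the block added 0.00, 0.06, 0.02, -0.12, 0.06 and -0.08. With limma and a pseudocount of 0.1 or 1, Actb was 0.03 in both, Atf5 0.04, Hpx 0.02, Hp 0.05, Spp1 0.08, and Gzma 0.04 and 0.02. Spp1 was 0.01 with DESeq2 and with median-of-ratios size factors, 0.00 without the filter and 0.02 with the 15 libraries. Without 1 library each, the log2 fold change of Actb was -0.16 to 0.06, of Hp -0.15 to 0.06, of Gzma -0.21 to 0.04, of Spp1 -0.06 to 0.06 and of Mrpl52 -0.01 to 0.09.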

Other observations

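Zinc finger genes were counted after their values were seen. Of 324 tested genes with a Zfp, Zkscan or Zscan symbol, 8 were higher (2.47%, against 0.936% of all tested genes) and 1, Zfp36, was lower, with a median log2 fold change of 0.16. The higher genes Zfp518a, Zfp770, Zfp939, Zfp942, Zfp946, Zfp953, Zfp960 and Zfp97 had log2 fold changes of 0.58 to 1.73. Their transcripts had a median GC content of 37.5%, and with GC-content offsets 4 zinc finger genes were higher and the median was 0.09.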
